A study of Homo sapiens with 12 samples.

Results

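The 3 libraries of the SNU638 line with SKA2 hairpin 3 were set against the 3 libraries of the line with SKA2 hairpin 1, so that both sides of the comparison carried a knockdown of the same gene. They are 6 of the 12 libraries of the series and were chosen by their titles, sh-SKA2-3 and sh-SKA2-1. SNU638 is an established human gastric cancer cell line. All the lines, including the control line, were infected with lentivirus and selected with puromycin, and the labels give both lines used here the genotype SKA2 knockdown. The series set out to profile the genes whose expression SKA2 regulates in gastric cancer cells. Each hairpin was represented by 1 stable line, so the hairpin sequence, the line and its selection cannot be told apart. Nothing in the labels ties the libraries of a line to separate cultures. The p-values rest on the spread between libraries within the lines, over all 12 in the fit, and that spread may be technical.

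SKA2 is one of the proteins of the SKA complex, named for its place at the spindle and kinetochore. In dividing cells this complex joins the NDC80 complex at the outer kinetochore and keeps chromosomes attached to the ends of shortening spindle microtubules. A short hairpin RNA is processed into a small RNA that guides the degradation of a complementary transcript. Different hairpins against the same gene can also act on different unintended transcripts, which is why knockdown studies commonly use several of them.

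SKA2 (Entrez 348235, chr17:59109951-59155269, minus strand, GRCh38) was measured at 24.9, 26.9 and 28.0 CPM, counts scaled to a common library total, in the hairpin 3 libraries, against 26.0, 22.3 and 23.7 CPM in the hairpin 1 libraries. The ranges overlapped, and both lines lay far below the control line, which averaged 120 CPM. The log2 difference, given throughout as hairpin 3 over hairpin 1, was 0.15 ± 0.08 (SE), with an approximate 95% interval of -0.02 to 0.32. It did not pass edgeR's quasi-likelihood test (adjusted p = 0.243), and an exact two-sided permutation test over the 6 libraries gave p = 0.2, where 0.1 is the smallest p that 3 against 3 allows. On the deposited TPM scale the difference was -0.07. SKA1 and SKA3, the other 2 subunits of the complex, had log2 differences of 0.23 ± 0.07 and 0.22 ± 0.06 and did not pass either (adjusted p = 0.0654 and 0.0513). PRR11, the head-to-head neighbour of SKA2, had a log2 difference of 0.06 (adjusted p = 0.815), which was -0.13 without hairpin 3 library 1 and 0.25 with the length trend described next removed, where it was called (adjusted p = 0.0434). With that trend removed SKA1 (0.22, adjusted p = 0.0464) and SKA3 (0.21, adjusted p = 0.0282) were called too, and SKA3 also without hairpin 3 library 1 (0.23, adjusted p = 0.0241). Neither SKA1 nor SKA3 overlapped between the lines, while SKA2 was not called under either change (adjusted p = 0.253 and 0.0738).

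One of the 6 libraries stood apart within its own line. Hairpin 3 library 1 differed from hairpin 3 libraries 2 and 3 with chi-square values per degree of freedom of 33.1 and 47.8. Hairpin 3 libraries 2 and 3 differed by 2.95 and the pairs of hairpin 1 libraries by 1.69 to 1.98. Control library 1 likewise differed from control libraries 2 and 3, by 25.3 and 52.1, while control libraries 2 and 3 differed by 6.74. The control libraries enter the spread of the fit and the control means given. On the first principal component of the 6 libraries, which held 61.0% of the variance, the hairpin 3 libraries lay at -10.1, 27.9 and 36.7, against -16.3, -20.2 and -18.0 for the hairpin 1 libraries. The split followed transcript length, here seen over 10 bins of about equal gene number. Length here means the length that the deposited counts and FPKM imply for a gene, which can be shorter than the full transcript. In the bin with the shortest transcripts the median log2 difference from the hairpin 1 mean was 0.02, 0.37 and 0.48 in hairpin 3 libraries 1, 2 and 3, and in the bin with the longest it was -0.00, -0.46 and -0.56. The hairpin 1 libraries stayed between -0.03 and 0.03 in both bins. Total counts were alike, at 15290000, 15650000 and 15890000 in the hairpin 3 libraries and 14990000, 15040000 and 15540000 in the hairpin 1 libraries. Results are therefore given with all libraries and, for most groups, without hairpin 3 library 1 and with the trend of each library against transcript length removed. Leaving out hairpin 3 library 1 keeps the libraries that carry the trend. The median log2 difference was then 0.44 in the bin of shortest transcripts and -0.51 in that of the longest. With all libraries these were 0.31 and -0.33. Calls kept without hairpin 3 library 1 are therefore no check against the length trend.

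**Figure D1:**
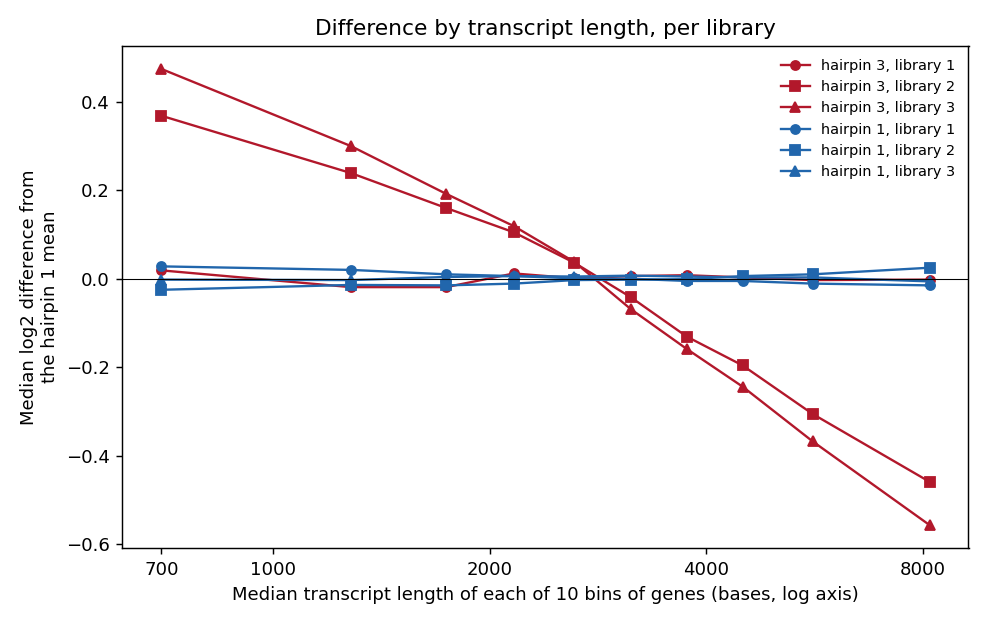
Median log2 difference of each library from the mean of the hairpin 1 libraries (y axis) over 10 bins of the tested genes. Bins are ordered by the transcript length that counts and FPKM imply (x axis, bases, log scale). Hairpin 3 libraries 2 and 3 fall with length, to -0.46 and -0.56 in the bin of longest transcripts, while hairpin 3 library 1 follows the hairpin 1 libraries near 0.

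Of 12868 genes tested, 1216 (9.45%) were called, with an edgeR p adjusted by Benjamini and Hochberg under 0.05, of which 611 (4.75%) were higher in the hairpin 3 line and 605 (4.70%) lower. Most differences were small: 82 genes (0.637%) differed at least 2-fold, 37 of them (0.288%) higher and 45 (0.350%) lower. Of the calls, 597 higher and 590 lower had at least 1 CPM and no overlap between the lines. Where no overlap is given below for a called gene, it therefore adds little to the call. It was also a condition for naming the largest rises and falls. Of the called genes 50.2% were higher, and on the deposited TPM scale this share was 15.4%, with a median of -0.19 over all genes in place of -0.01. With all libraries, calls in the bin of shortest transcripts were 139 higher and 4 lower, and in that of the longest 10 higher and 115 lower. Without hairpin 3 library 1 the count was 5267 of 13000 genes (40.5%), with 19.5% higher and 21.0% lower, and 1209 of the 1216 calls were shared. Leaving out any other library of the 2 lines gave 239 to 298 of 12981 to 12995 genes. In these fits 100 to 136 genes were called higher and 135 to 162 lower. With the length trend removed the count was 1812 genes (14.1%), with 7.88% higher and 6.20% lower, 877 of them shared. Counts of called members in the groups below are to be set against the share of all genes called in the same fit. For the other leave-one-out fits that share is far below the 4.75% and 4.70% of the main fit, and it is not repeated below.

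The largest rise among named genes was in FOS, and the immediate-early genes had the highest median difference of the groups described here. Immediate-early genes are switched on within minutes of a growth factor or stress signal from transcription factors already in the cell, and many of them encode transcription factors themselves. Of 24 listed and tested, 15 were called higher and 2 lower, beside the 4.75% and 4.70% of all tested genes. Their median log2 difference was 0.73, against -0.01 over all tested genes. Without hairpin 3 library 1 the counts were 15 higher and 3 lower, beside 19.5% and 21.0% of all genes. With the length trend removed they were 15 higher and 6 lower, beside 7.88% and 6.20%. FOS (Entrez 2353, chr14:75278774-75282230, plus strand), a subunit of the AP-1 transcription factor, stood at 96.5, 107 and 108 CPM in the hairpin 3 libraries, against 7.19, 6.16 and 6.59 CPM in the hairpin 1 libraries. The lines did not overlap, and the control line, at a mean of 28.7 CPM, lay between them. The log2 difference was 3.96 ± 0.09, a 15.6-fold level (adjusted p = 2.1e-10), and hairpin 3 library 1 stood with the other hairpin 3 libraries. FOSB, another AP-1 subunit, had 54.1, 57.7 and 52.9 CPM with hairpin 3, against 17.0, 18.8 and 15.3 CPM with hairpin 1, a 3.22-fold level (adjusted p = 1.4e-06). JUN, the partner of the FOS proteins, had 224, 249 and 241 CPM with hairpin 3, against 127, 125 and 122 CPM with hairpin 1, a log2 difference of 0.93 ± 0.06 (adjusted p = 4.8e-06). Both genes were thus higher in every hairpin 3 library than in any hairpin 1 library.

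EGR1, a zinc finger transcription factor, had 426, 452 and 444 CPM in the hairpin 3 libraries, against 177, 147 and 159 CPM in the hairpin 1 libraries (log2 difference 1.46 ± 0.07, adjusted p = 9.39e-07). NR4A1, an orphan nuclear receptor, had 83.7, 95.2 and 89.9 CPM with hairpin 3, against 27.1, 24.8 and 25.8 CPM with hairpin 1 (log2 difference 1.79 ± 0.09). ATF3, a stress-induced partner of AP-1 factors, had 52.4, 55.2 and 54.2 CPM with hairpin 3, against 20.7, 19.7 and 22.6 CPM with hairpin 1 (1.36 ± 0.08). In none of these did the lines overlap, and the order against the control differed between them. The control line averaged 55.7 CPM for NR4A1, between the lines, but 508 CPM for EGR1 and 90.4 CPM for ATF3, above both. ZFP36, which binds AU-rich elements and shortens the life of such transcripts, rose 2.71-fold, and IER2 rose 2.63-fold. IER2 had 190, 253 and 264 CPM with hairpin 3, against 89.5, 83.8 and 95.1 CPM with hairpin 1, with library 1 the lowest of its line. Smaller rises that passed the test were those of JUNB (0.77), the matricellular genes CCN1 (0.77) and CCN2 (0.88), NR4A2 (0.58), EGR2 (0.62), EGR4 (0.90) and KLF4 (0.68).

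Not every member of the group was higher. MYC had 233, 272 and 277 CPM with hairpin 3, against 363, 350 and 338 CPM with hairpin 1, and fell by 0.43 on the log2 scale (SE 0.07, adjusted p = 0.00574). FOSL2, an AP-1 subunit, fell by 0.57 (SE 0.14, adjusted p = 0.028). FOSL1, IER3, EGR3, NR4A3 and KLF2 had log2 differences between -0.04 and 0.14, and JUND and KLF6 of -0.43 each, without passing the test. In the fits that left out 1 library other than hairpin 3 library 1, the group held 12 or 13 higher calls and 1 lower. EGR4 and FOSL2 lost their calls in all 5 of those fits (adjusted p up to 0.143 and 0.12), EGR2 in 4 and KLF4 in 3 (up to 0.0826 and 0.13).

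**Figure D2:**
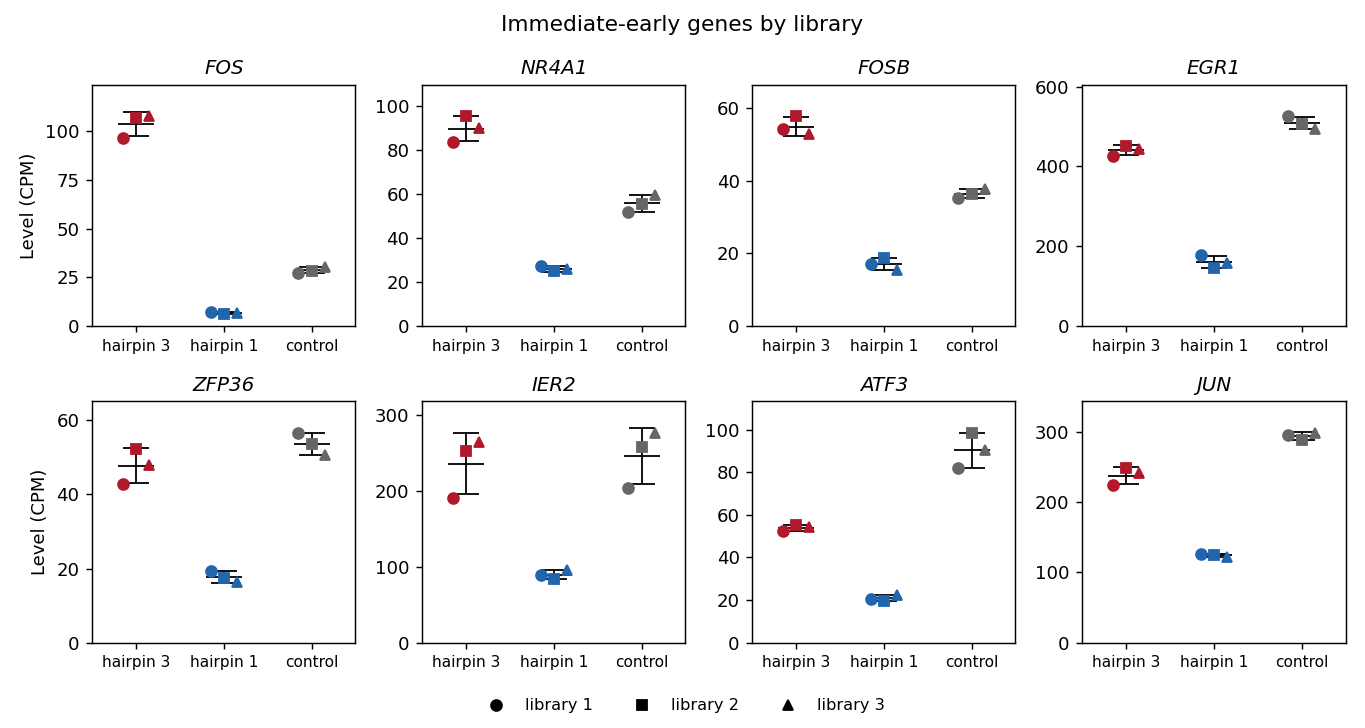
Levels (y axes, CPM, from 0) of 8 immediate-early genes in each hairpin 3, hairpin 1 and control library, with the mean and SD of each line (n = 3). For each gene all hairpin 3 libraries lie above all hairpin 1 libraries. Hairpin 3 library 1 lies close to hairpin 3 libraries 2 and 3 except for IER2, at 190 CPM against 253 and 264 CPM.

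The promoters of FOS, FOSB and EGR1 are shown because they hold matches to elements that control many such genes. These elements are cAMP- and calcium-responsive elements and serum response elements. The sequences shown were chosen for having a match. The sequences are the 250 bases before the RefSeq start (GRCh38.p14), on the plus strand at chr14:75278578-75278827 for FOS, chr19:45467746-45467995 for FOSB and chr5:138465229-138465478 for EGR1.
FOS: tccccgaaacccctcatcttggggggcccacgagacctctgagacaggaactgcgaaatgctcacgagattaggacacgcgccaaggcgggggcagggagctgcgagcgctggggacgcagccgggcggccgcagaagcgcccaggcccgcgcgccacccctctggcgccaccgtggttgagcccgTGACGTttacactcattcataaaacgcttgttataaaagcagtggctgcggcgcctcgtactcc
FOSB: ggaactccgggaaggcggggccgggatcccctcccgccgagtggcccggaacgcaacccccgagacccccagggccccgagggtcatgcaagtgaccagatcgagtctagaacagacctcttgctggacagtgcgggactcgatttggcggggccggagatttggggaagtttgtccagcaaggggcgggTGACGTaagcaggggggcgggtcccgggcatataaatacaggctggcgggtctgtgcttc
EGR1: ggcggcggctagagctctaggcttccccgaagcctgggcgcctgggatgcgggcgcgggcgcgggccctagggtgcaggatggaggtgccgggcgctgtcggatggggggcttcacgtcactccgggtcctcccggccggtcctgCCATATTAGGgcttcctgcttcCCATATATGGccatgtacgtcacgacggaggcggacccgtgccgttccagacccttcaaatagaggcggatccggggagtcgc
Capitals mark TGACGT, the core of a cAMP response element (CRE), in FOS and FOSB, at 64 and 60 bases before the start, and the CArG box, the core of a serum response element, in EGR1, at 105 and 83 bases before the start. Both strands were searched, and EGR1 also holds the CRE core on the other strand, left in lower case. The CRE core was found in 8 of the 18 immediate-early genes with a promoter in the table, 5 of them among the 13 called higher and 3 among the 5 others. It was found in 7.10% of all 35116 promoters and in 9.21% of the promoters of tested genes. These shares count single promoters, whereas a gene of the list was counted for a match in any of its promoters. A CArG box was found in EGR1 and EGR2, and in 1.16% of all promoters. JUN and NR4A1 were not among the genes with a match to either element. Elements outside the 250 bases were not searched, so a gene without a match may hold one there. These matches are a description of the letters in the window.

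Genes of the feedback on ERK signalling, the kinase pathway upstream of many immediate-early genes, were divided. Of 23 tested, 3 were called higher and 2 lower, beside 4.75% and 4.70% of all tested genes, with a median of -0.11. The higher ones were EGR1, which is in both lists, and the phosphatases DUSP1 and DUSP2. DUSP1 had 17.3, 19.3 and 20.5 CPM with hairpin 3, against 8.62, 7.79 and 10.2 CPM with hairpin 1 (log2 difference 1.10 ± 0.12, adjusted p = 5.15e-04). DUSP2 had 16.7, 23.2 and 25.8 CPM, against 14.2, 11.7 and 11.5 CPM (0.81 ± 0.17). DUSP1 and DUSP2 did not overlap between the lines. DUSP6, SPRY2, SPRY4 and ETV5, which report ERK output in many cells, had log2 differences between -0.14 and -0.09 and did not pass the test (adjusted p of 0.335 to 0.429). EPHA4 and PHLDA1 fell by 0.58 and 0.29. With the length trend removed PHLDA1 was not called (-0.07). Without 1 of the libraries other than hairpin 3 library 1, DUSP2 lost its call in 4 of 5 fits and PHLDA1 in all 5 (adjusted p up to 0.0862 and 0.12).

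Some of the genes induced by type I interferon were higher with hairpin 3. Interferons signal through a complex that contains IRF9 and binds a short element in the promoters of antiviral genes. Of 52 such genes listed 49 were tested, with a median of 0.40. By edgeR at the same threshold 14 were called higher and 0 lower, beside 4.75% and 4.70% of all tested genes. All tested members that did not overlap between the lines, 26 of the 49, were higher, where over all tested genes 34.1% did not overlap in either direction and 16.7% were higher. IFIT1 (Entrez 3434, chr10, plus strand), which binds viral RNA lacking host-type caps, had 12.4, 14.6 and 13.8 CPM in the hairpin 3 libraries, against 6.07, 5.06 and 6.53 CPM in the hairpin 1 libraries. Its log2 difference was 1.20 ± 0.13 (adjusted p = 5.65e-04). IRF9 had 20.2, 22.0 and 20.5 CPM with hairpin 3, against 10.6, 12.3 and 13.3 CPM with hairpin 1 (0.79 ± 0.10), and IFI6 25.7, 32.4 and 35.0 CPM, against 14.1, 16.0 and 15.2 CPM (1.04 ± 0.15). The lines did not overlap for any of the 3. OASL, related to the oligoadenylate synthetases, had the largest difference of the group, 1.64 ± 0.20, at the low levels of 2.02, 2.02 and 2.66 CPM, against 0.588, 0.649 and 0.888 CPM. IFIT2, IFIT3, IFI44, XAF1, MX1, DHX58, IFITM2, IRF7, HERC6 and PLSCR1 were called as well, at log2 differences of 0.34 to 1.34. IFITM2 has near-identical relatives between which the counting may have split reads, and IFIT1 overlaps LIPA on the other strand, whose reads cannot be told apart without strand. Without hairpin 3 library 1 there were 26 higher and 2 lower calls, beside 19.5% and 21.0% of all genes. With the length trend removed they were 16 higher and 0 lower, beside 7.88% and 6.20%. The other leave-one-out fits gave 7 or 8 higher and 0 lower. IFIT1, IRF9, IFI6 and OASL were called in all 6 leave-one-out fits. PLSCR1 was not called with the length trend removed (log2 difference 0.19, adjusted p = 0.337).

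The IFIT1 promoter, chr10:89392373-89392622 on the plus strand, is shown because it holds a pair of matches to the interferon-stimulated response element (ISRE).
IFIT1: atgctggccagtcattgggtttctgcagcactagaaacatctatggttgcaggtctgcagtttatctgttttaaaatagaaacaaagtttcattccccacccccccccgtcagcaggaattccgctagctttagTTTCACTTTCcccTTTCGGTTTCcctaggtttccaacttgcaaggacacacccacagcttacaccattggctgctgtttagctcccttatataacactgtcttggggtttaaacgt
Capitals mark the reverse complement of the ISRE, searched as GAAA, any 2 bases and GAAA on both strands, at 116 and 103 bases before the start. The element was found in 24 of the 39 tested interferon genes with a promoter in the table. Counted per promoter and not per gene, it was found in 3.02% of all promoters and in 2.54% of those of tested genes. It was present in 6 of the 9 with a promoter that were called higher and in 18 of the 30 others.

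Several cytosolic and mitochondrial chaperones of the heat shock response were also higher with hairpin 3. These proteins fold new or damaged proteins, and heat shock factor 1 drives most of their genes. Of 18 tested, 10 were called higher and 0 lower, beside 4.75% and 4.70% of all tested genes, with a median of 0.33. HSPA8, the constitutive HSP70, was among the most abundant transcripts named, at 3620, 3890 and 3920 CPM in the hairpin 3 libraries, against 2520, 2600 and 2610 CPM in the hairpin 1 libraries. Its log2 difference was 0.56 ± 0.06 (adjusted p = 4.58e-04), and its control mean, 1480 CPM, lay below both lines. HSP90AB1, an HSP90, had 3570, 3680 and 3780 CPM with hairpin 3, against 2720, 2730 and 2840 CPM with hairpin 1 (0.41 ± 0.06). The lines did not overlap for either gene. The inducible HSP70 gene HSPA1A had 231, 279 and 284 CPM, against 143, 144 and 127 CPM (0.94 ± 0.12), but it and HSPA1B (0.46) are near-identical copies between which reads may have been split. DNAJB1 and DNAJA1, HSP40 co-chaperones, rose by 0.61 and 0.31, the mitochondrial chaperonin pair HSPD1 and HSPE1 by 0.32 and 0.61, and HSPH1 and BAG3, which help HSP70 to release its clients, by 0.38 and 0.24. HSP90AA1, HSPA4, HSPA9 and HSF1 itself had log2 differences of 0.01 to 0.10 and did not pass the test. Calls without hairpin 3 library 1 were 12 higher and 0 lower, beside 19.5% and 21.0% of all genes. With the length trend removed they were also 12 higher and 0 lower, beside 7.88% and 6.20%. The other leave-one-out fits gave 5 to 7 higher and 0 lower calls. HSPE1 was not called with the length trend removed (log2 difference 0.23, adjusted p = 0.0655).

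The HSPA8 promoter, chr11:123062137-123062386 on the minus strand, is shown because it holds heat shock elements at both ends of the window.
HSPA8: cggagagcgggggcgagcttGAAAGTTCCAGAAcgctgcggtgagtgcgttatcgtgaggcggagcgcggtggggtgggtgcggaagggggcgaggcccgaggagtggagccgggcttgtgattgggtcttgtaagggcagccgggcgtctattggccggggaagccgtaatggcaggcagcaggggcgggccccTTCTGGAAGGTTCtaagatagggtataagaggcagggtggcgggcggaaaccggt
Capitals mark the element, searched on both strands as 3 alternating units GAA and TTC, any 2 bases apart and starting with either, at 230 and 55 bases before the start. It was found in 5 of the 17 tested chaperone genes with a promoter in the table, 3 of them among the 10 called higher and 2 among the 7 others. Counted per promoter and not per gene, it was found in 0.441% of all promoters and in 0.351% of those of tested genes.

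Target genes of p53, the transcription factor activated by DNA damage, were called higher in 7 of 25 cases and lower in 0, with a median of 0.24. Of all tested genes 4.75% were called higher and 4.70% lower. CDKN1A, which encodes the cell cycle inhibitor p21, had 127, 150 and 143 CPM in the hairpin 3 libraries, against 87.7, 83.1 and 88.0 CPM in the hairpin 1 libraries (log2 difference 0.70 ± 0.07, adjusted p = 3.93e-04). BTG2, an antiproliferative gene that is also immediate-early in many cells, had 20.4, 19.4 and 19.9 CPM, against 13.4, 10.6 and 12.2 CPM (0.72 ± 0.09). The lines did not overlap for CDKN1A or BTG2. TP53I3 (0.77), the apoptosis inducer BBC3 (0.62), PHLDA3 (0.66), DDB2 (0.58) and TRIAP1 (0.60) were the other calls. MDM2, the ubiquitin ligase that destroys p53, had 415, 282 and 250 CPM with hairpin 3, against 289, 296 and 297 CPM with hairpin 1, and did not pass the test (0.10, adjusted p = 0.723). Its hairpin 3 values fell on both sides of the hairpin 1 values, with library 1 the highest. FAS, CCNG1 and TNFRSF10B had log2 differences of -0.07 to 0.11, also without a call. The group held 11 higher calls without hairpin 3 library 1, where 19.5% of all genes were called higher. With the length trend removed it held 13, beside 7.88% of all genes. In the other leave-one-out fits it held 3 or 4, and each of these fits had 0 lower. TRIAP1 lost its call in 4 of those 5 fits (adjusted p up to 0.068).

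Of 30 tested genes of mitotic entry and cytokinesis, 9 were called higher with hairpin 3 and 0 lower, with a median of 0.17. Of all tested genes 4.75% were called higher and 4.70% lower. TPX2, which activates Aurora A on the spindle, had 421, 407 and 413 CPM in the hairpin 3 libraries, against 338, 352 and 356 CPM in the hairpin 1 libraries (0.25 ± 0.05, adjusted p = 0.016). CDC25B, a phosphatase that activates mitotic CDK1, had 84.3, 102 and 99.7 CPM with hairpin 3, against 73.7, 67.5 and 68.9 CPM with hairpin 1 (0.45 ± 0.10). KIF20A rose by 0.32, cyclins CCNA2, CCNB1 and CCNB2 by 0.29, 0.28 and 0.41, PLK1 by 0.37, CDC25A by 0.29 and UBE2C by 0.48. None of the 9 overlapped between the lines. Calls without hairpin 3 library 1 were 14 higher and 0 lower, beside 19.5% and 21.0% of all genes. With the length trend removed they were 10 higher and 0 lower, beside 7.88% and 6.20%. In the other leave-one-out fits only 0 or 1 was called. TPX2, CDC25B and CCNB2 lost their calls in all 5 (adjusted p up to 0.0803, 0.0902 and 0.105) and KIF20A in 4 (up to 0.0909). UBE2C was not called with the length trend removed (0.18, adjusted p = 0.0702).

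At the outer kinetochore, where SKA2 acts, 2 of 13 tested genes of the SKA and NDC80 complexes were called higher and 0 lower. Of all tested genes 4.75% were called higher and 4.70% lower. The median of the 13 was 0.18. NDC80 had 72.1, 64.7 and 64.4 CPM in the hairpin 3 libraries, against 57.9, 56.3 and 54.7 CPM in the hairpin 1 libraries (0.25 ± 0.07, adjusted p = 0.0392). NUF2 had 70.7, 70.6 and 67.8 CPM, against 59.9, 55.3 and 58.1 CPM (0.27 ± 0.08, adjusted p = 0.0494). Both are coiled-coil subunits of the complex that touches the microtubule, and their lines did not overlap. Neither was called in any of the 5 other leave-one-out fits (adjusted p up to 0.129 and 0.159) or with the length trend removed (0.17 each, adjusted p of 0.188 and 0.294). Of their partners, SPC25 had a log2 difference of 0.32 (adjusted p = 0.0516) and SPC24 of 0.05.

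Fatty acid synthesis genes were mostly lower with hairpin 3: of 11 tested, 7 were called lower and 1 higher, with a median of -0.36. Of all tested genes 4.70% were called lower and 4.75% higher. SCD, the desaturase that makes monounsaturated fatty acids, had 176, 138 and 143 CPM in the hairpin 3 libraries, against 274, 288 and 284 CPM in the hairpin 1 libraries. It fell by 0.88 on the log2 scale (SE 0.11, adjusted p = 0.00149), and the control line, at 113 CPM, lay below both. SREBF1, the transcription factor that drives the pathway, had 60.8, 68.2 and 69.9 CPM with hairpin 3, against 96.9, 97.0 and 94.0 CPM with hairpin 1 (-0.53 ± 0.07). FADS1, ACACA, LPIN1 and ELOVL6 fell by 0.80, 0.57, 0.58 and 0.36, and FADS2, whose gene overlaps FADS1 on the other strand, rose by 0.43. FASN, the fatty acid synthase, had 837, 827 and 851 CPM, against 1090, 1070 and 1020 CPM (-0.34 ± 0.06, adjusted p = 0.00895). None of these genes overlapped between the lines. These transcripts are long, with a median implied length of 4118 bases. With the length trend removed the group held 5 lower calls and 1 higher, beside 6.20% and 7.88% of all genes. Its median was then -0.12. SCD (-0.70) and SREBF1 (-0.39) were still called then, while FASN was at 0.01 and ELOVL6 at -0.11 without a call. Without hairpin 3 library 1 there were 8 lower calls and 1 higher, beside 21.0% and 19.5% of all genes. In the other leave-one-out fits 2 or 3 were called lower and 0 higher. FADS1 and ACACA lost their calls in all 5 (adjusted p up to 0.0763 and 0.142) and FASN in 3 (up to 0.0578).

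Cholesterol genes were divided, with 3 of 25 called higher, 6 lower and a median of -0.09. Of all tested genes 4.75% were called higher and 4.70% lower. SREBF2, the transcription factor that drives the pathway, had 145, 142 and 143 CPM in the hairpin 3 libraries, against 178, 180 and 173 CPM in the hairpin 1 libraries (-0.30 ± 0.06, adjusted p = 0.00978). STARD4, which carries cholesterol between membranes, had 34.8, 23.9 and 22.1 CPM, against 43.8, 43.1 and 44.6 CPM (-0.70 ± 0.16, adjusted p = 0.0272), with hairpin 3 library 1 the highest of its line. INSIG1, which holds back the activation of SREBF2, fell by 0.23. The 3 called higher, PMVK (0.60), NSDHL (0.41) and MSMO1 (0.22), encode enzymes of the pathway. None of these 6 genes overlapped between the lines. Calls without hairpin 3 library 1 were 6 higher and 7 lower, near the 19.5% and 21.0% of all genes. With the length trend removed they were 2 higher and 6 lower, beside 7.88% and 6.20%, and SREBF2 (-0.12) and MSMO1 (0.14) were not called. Leaving out libraries other than hairpin 3 library 1 gave 0 higher and 0 to 2 lower calls. STARD4, INSIG1, PMVK, NSDHL and MSMO1 lost theirs in all 5 of those fits (adjusted p up to 0.118, 0.151, 0.188, 0.175 and 0.141) and SREBF2 in 3 (up to 0.0603).

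In the list of glycolysis and hypoxia genes 3 of 29 were called higher and 7 lower (median -0.12). Of all tested genes 4.75% were called higher and 4.70% lower. PDK1, a kinase that keeps pyruvate out of mitochondria, had 37.9, 22.8 and 23.4 CPM in the hairpin 3 libraries, against 57.2, 60.5 and 57.4 CPM in the hairpin 1 libraries (-1.06 ± 0.18, adjusted p = 0.0063). PFKFB3, HK1, HK2, ALDOC, P4HA1 and VEGFA fell by 0.46, 0.29, 0.51, 0.53, 0.43 and 0.33. ADM, the vasodilator adrenomedullin, had 41.6, 52.5 and 51.5 CPM with hairpin 3, against 32.7, 30.0 and 28.2 CPM with hairpin 1 (0.68 ± 0.09), and NDRG1 and the glucose transporter SLC2A3 rose by 0.48 and 0.44. No called gene of the list overlapped between the lines, as was the case for nearly all called genes. Calls with the length trend removed were 3 higher and 12 lower, beside 7.88% and 6.20% of all genes. Without hairpin 3 library 1 they were 5 higher and 8 lower, beside 19.5% and 21.0%. The other leave-one-out fits gave 3 higher and 3 lower.

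Targets of ATF4, the transcription factor of amino acid shortage, were also divided, with 7 of 36 called higher, 4 lower and a median of 0.05. Of all tested genes 4.75% were called higher and 4.70% lower. ATF4 itself had 260, 333 and 348 CPM in the hairpin 3 libraries, against 221, 217 and 222 CPM in the hairpin 1 libraries (0.51 ± 0.11, adjusted p = 0.0196). SESN2, an inhibitor of mTORC1, had 33.3, 36.8 and 37.8 CPM, against 25.9, 23.4 and 25.1 CPM (0.53 ± 0.09). ATF3, described above, ATF5, the asparagine synthetase ASNS, CTH and the transporter chain SLC3A2 were higher, and DDIT4, SLC7A1, SLC7A5 and VEGFA were lower. Both lines lay far below the control for SESN2 (308 CPM) and ASNS (554 CPM). ATF4 lost its call in all 5 leave-one-out fits other than that without hairpin 3 library 1 (adjusted p up to 0.0896), and ASNS and ATF5 in 4 (up to 0.0678 and 0.0656). In those fits the list held 2 to 4 higher calls and 0 or 1 lower. Without hairpin 3 library 1 it held 11 higher and 6 lower, beside 19.5% and 21.0% of all genes. With the length trend removed it held 7 higher and 6 lower, beside 7.88% and 6.20%, and SLC7A5 was not called (-0.08).

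Among chemokines and cytokines, 4 of 19 tested were called higher and 1 lower, beside 4.75% and 4.70% of all tested genes, with a median of 0.38. The median was 0.15 with the length trend removed and 0.16 to 0.33 when 1 library was left out. The 4 were neighbouring CXC chemokine genes on chromosome 4, which attract neutrophils. CXCL3 had 32.3, 38.6 and 35.3 CPM in the hairpin 3 libraries, against 19.0, 19.4 and 20.9 CPM in the hairpin 1 libraries (0.84 ± 0.08, adjusted p = 2.32e-04). CXCL1 had 120, 136 and 133 CPM, against 85.9, 82.7 and 79.8 CPM (0.65 ± 0.09), and CXCL2 and CXCL5 rose by 0.68 and 0.61. PPBP, of the same cluster but outside the list, had 3.19, 3.80 and 4.24 CPM, against 1.57, 1.36 and 1.59 CPM (1.31 ± 0.25). None overlapped between the lines, whereas CXCL8 of the same cluster had 121, 94.3 and 98.3 CPM, against 96.2, 91.4 and 93.5 CPM, without a call (0.16, adjusted p = 0.357). LIF, an IL-6 family cytokine, fell by 0.28. With the length trend removed CXCL2 and LIF were not called (adjusted p = 0.0527 and 0.0557). CXCL2 lost its call in 4 leave-one-out fits, and PPBP and LIF in 2 each (adjusted p up to 0.0843, 0.0628 and 0.0603).

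The replication-dependent histone genes were taken, by a rule set after their values were seen, as all deposited symbols of the clustered H1, H2A, H2B, H3 and H4 families, and 26 of the 62 were tested. They held 7 higher and 0 lower calls, beside 4.75% and 4.70% of all tested genes, with a median of 0.54. Most of their transcripts lack a poly(A) tail, so the oligo(dT) selection used here sees them only in part, and near-identical copies may have shared reads. H2BC12 had 30.5, 40.7 and 41.9 CPM in the hairpin 3 libraries, against 23.6, 19.5 and 20.9 CPM in the hairpin 1 libraries (0.82 ± 0.14, adjusted p = 0.00633). H2BC21 had 10.3, 11.1 and 9.93 CPM, against 6.01, 6.29 and 5.77 CPM (0.79 ± 0.10). Neither overlapped between the lines, and H2BC4 and H2AC18 rose by 0.82 and 0.73. The tested members are short, with a median implied length of 237 bases, which can be below that of the full transcripts. With the length trend removed 3 were called higher and 0 lower, beside 7.88% and 6.20% of all genes, with a median of 0.24. In the leave-one-out fits other than that without hairpin 3 library 1, 2 or 3 were called. H2AC18 lost its call in all 5 (adjusted p up to 0.0944) and H2BC4 in 4 (up to 0.0804).

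The ribosomal protein and respiratory chain genes showed how far 1 library and transcript length moved a group. Of 79 cytosolic ribosomal protein genes 8 were called higher and 0 lower, beside 4.75% and 4.70% of all tested genes, with a median of 0.43. Without hairpin 3 library 1 these were 77 and 0, beside 19.5% and 21.0% of all genes, and in the other leave-one-out fits 0 and 0. Their median against the hairpin 1 mean was 0.09, 0.51 and 0.63 in hairpin 3 libraries 1, 2 and 3. With the length trend removed the group's median was 0.13, with 21 higher and 1 lower, beside 7.88% and 6.20% of all genes. RPS12 had 823, 1100 and 1190 CPM with hairpin 3, against 736, 700 and 710 CPM with hairpin 1 (0.54 ± 0.14, adjusted p = 0.0378). Library 1 thus lay nearer to the hairpin 1 line than to its own. RPS26, FAU and RPL21 were called too (0.71, 0.59 and 0.52), and all 4 lost their calls in those 5 fits (adjusted p up to 0.153). Many processed pseudogenes of these genes may share their reads.

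Mitochondrial ribosomal proteins had 13 of 76 called higher and 1 lower, beside 4.75% and 4.70% of all tested genes. Their median of 0.30 was 0.10 with the length trend removed, with 9 higher and 1 lower, beside 7.88% and 6.20% of all genes. The lower one, MRPS25, had 94.8, 85.7 and 89.8 CPM in the hairpin 3 libraries, against 116, 122 and 118 CPM in the hairpin 1 libraries (-0.40 ± 0.06, adjusted p = 0.00359), and was called in all 6 leave-one-out fits. MRPS30, MRPL15 and MRPS35 rose by 0.32, 0.34 and 0.28, but lost their calls in the 5 fits without another library than hairpin 3 library 1 (adjusted p up to 0.0916, 0.0707 and 0.0782). Of 75 respiratory chain genes 4 were called higher, a share near the 4.75% of all tested genes, and 0 lower, with a median of 0.35 that was 0.04 with the length trend removed. They were the complex I subunits NDUFB3 (0.59) and NDUFB4 (0.50) and the ATP synthase subunits ATP5PB (0.30) and ATP5PF (0.44). With the length trend removed NDUFB3 (0.18), NDUFB4 (0.15) and ATP5PF (0.06) were not called (adjusted p = 0.189, 0.0813 and 0.642). Of all genes 19.5% were called higher and 21.0% lower without hairpin 3 library 1. In that fit 54 mitochondrial ribosomal protein and 62 respiratory chain genes were called higher and 2 and 1 lower. In the other leave-one-out fits 0 and 1 were called higher and 1 and 0 lower.

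**Figure D3:**
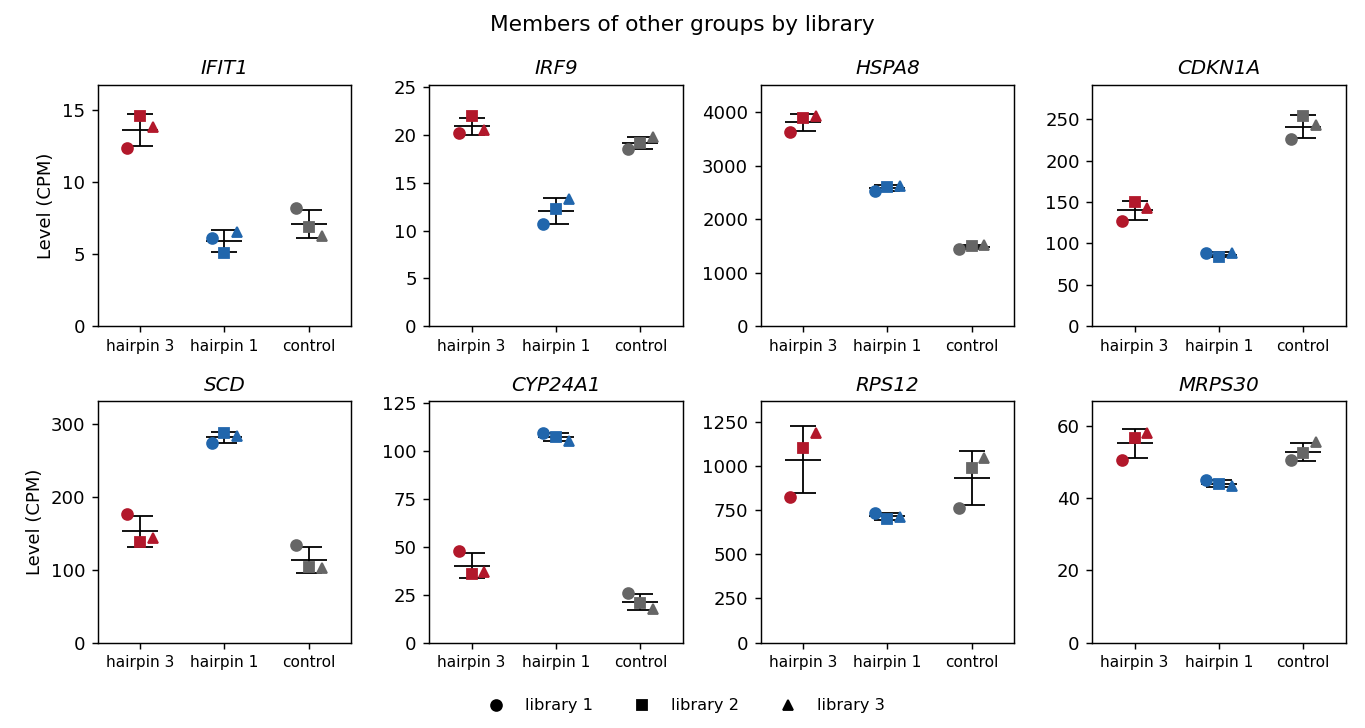
Levels (y axes, CPM, from 0) of 8 genes from the other groups in each hairpin 3, hairpin 1 and control library, with the mean and SD of each line (n = 3). Hairpin 3 library 1 sits with its line for IFIT1, IRF9 and HSPA8 but nearer to the hairpin 1 libraries for RPS12.

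Outside these groups the largest changes were in genes of varied function. CYP24A1, which inactivates vitamin D, had 47.6, 35.8 and 36.6 CPM in the hairpin 3 libraries, against 109, 107 and 105 CPM in the hairpin 1 libraries. It fell by 1.42 on the log2 scale (SE 0.14, adjusted p = 2.32e-04) and was called in all 6 leave-one-out fits. MUC6, a secreted mucin of gastric glands, had 3.77, 6.58 and 5.75 CPM with hairpin 3, against 0.980, 1.04 and 0.698 CPM with hairpin 1 (2.56 ± 0.38, adjusted p = 0.00349), and was called in all 6 as well. The lines did not overlap for CYP24A1 or MUC6, which was a condition for naming them. Most other large differences were at low levels. SLCO1C1, a thyroid hormone transporter, fell by 2.05, with 1.43, 0.443 and 0.316 CPM against 3.14, 3.37 and 2.60 CPM. POTEE (-1.86), MSRB3 (-1.60), PKDREJ (-1.54), TRIM31 (-1.51), PTPRB (-1.51), GREB1L (-1.47), OR5AS1 (-1.43), SYT12 (-1.35), ARMCX5-GPRASP2 (-1.34) and CAMK2N1 (-1.32) were the other large falls, and TIAF1 (1.56) and HOXB2 (1.27) the other large rises. POTEE has close paralogs and overlaps PLEKHB2, TIAF1 lies within MYO18A on the same strand, and ARMCX5-GPRASP2 is a readthrough of its neighbours, so their counts are uncertain. TIAF1, HOXB2, SLCO1C1 and POTEE lost their calls in all 5 leave-one-out fits other than that without hairpin 3 library 1 (adjusted p up to 0.151, 0.159, 0.105 and 0.141). MSRB3, PTPRB and ARMCX5-GPRASP2 lost theirs in 4 and TRIM31 in 3 (up to 0.0718, 0.088, 0.147 and 0.0775).

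The share of tested genes that were called lay between 5.71% (chromosome 22) and 14.52% (chromosome 21). With the length trend removed, the median log2 difference of a chromosome lay between -0.052 (chromosome 21) and 0.045 (chromosome 17), and that of 261 windows of 10 Mb between -0.17 and 0.12. Markers of gastric epithelial cells were all deposited and tested, with sums of 2147 to 2894 CPM in the hairpin 3 libraries and 2343 to 2431 CPM in the hairpin 1 libraries. Of these 10, 2 were called higher and 0 lower, beside 4.75% and 4.70% of all tested genes. EPCAM and KRT8 were high in both lines, while CDH1, which encodes E-cadherin, had 97 to 130 counts with hairpin 3 and 131 to 140 counts with hairpin 1. CLDN4 was the lowest, at 4 to 15 counts with hairpin 3 and 5 counts with hairpin 1. Markers of other cells differed in level. PTPRC, the pan-leukocyte CD45 gene, was at 0 counts in all 6 libraries, COL1A2 and KDR likewise, and 8 of 9 deposited fibroblast, 6 of 10 endothelial, 3 of 8 leukocyte and 4 of 8 neuroendocrine and neural markers had at most 3 counts in any of them. Others were present in both lines. TUBB3, a tubulin of neurons, had 3086 to 4315 counts with hairpin 3 and 2364 to 2411 counts with hairpin 1, ENO2 1375 to 1670 and 1655 to 1710 counts, CD68 317 to 388 and 305 to 365 counts, SCG2 193 to 199 and 203 to 207 counts, ESAM 118 to 155 and 98 to 112 counts, and COL1A1 52 to 86 and 75 to 91 counts. Their part in the results was not tested.

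**Figure D4:**
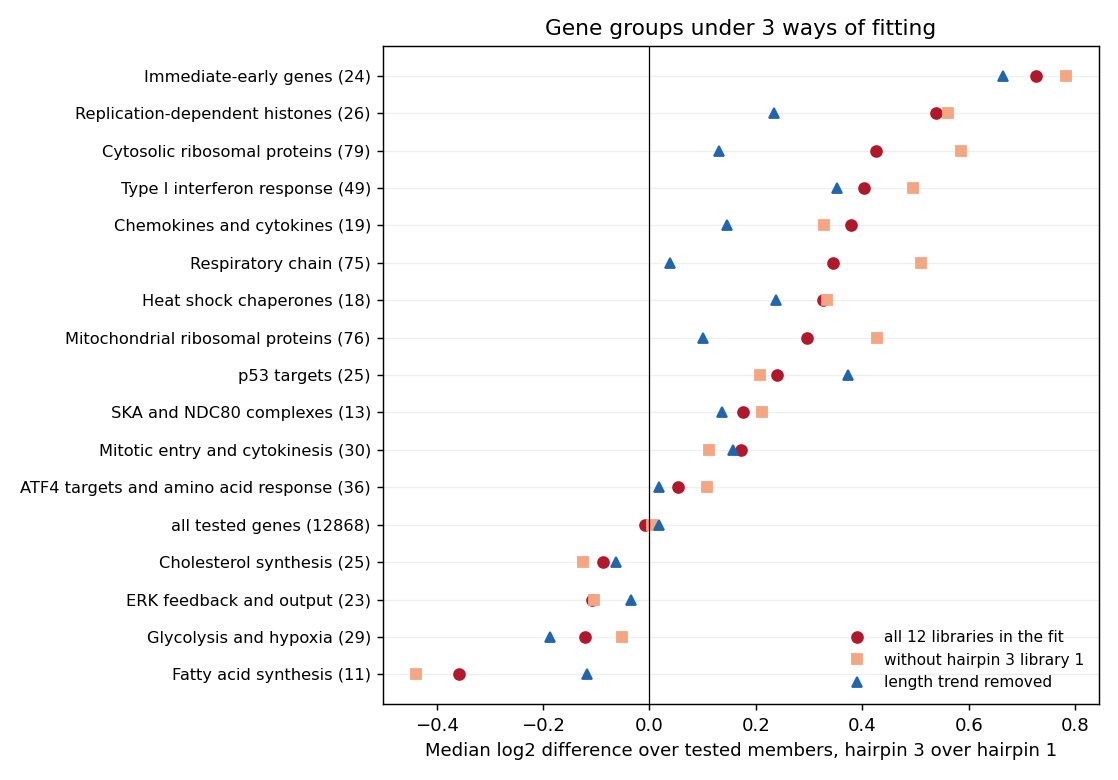
Median log2 difference of hairpin 3 over hairpin 1 (x axis) over the tested members of each group (y axis, number tested in brackets), with all libraries, without hairpin 3 library 1 and with the length trend removed. Immediate-early, interferon, heat shock and p53 groups lie right of 0 in all 3, and so do the cytosolic ribosomal protein and respiratory chain groups. The medians of these last 2 shrink to 0.13 and 0.04 with the length trend removed. The interferon and heat shock medians shrink less, from 0.40 and 0.33 to 0.35 and 0.24.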

How the data were processed

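Bulk RNA-seq of 12 SNU638 libraries from 4 stable lines was used, with groups taken from the sample titles. RNA was taken up in Trizol, per the labels' protocols, selected on oligo(dT) beads, fragmented and primed with random hexamers, and no step that marks the strand is named. The submitters' processing notes name RSEM, Bowtie2, HISAT and DESeq2 and build GRCh38.p13. The roles and versions of these tools are not stated. Per the file headers, the authors' deposited table holds 17303 genes with expected counts, FPKM and TPM per library. The deposited expected counts share ambiguous reads between genes. The authors' FPKM values, deposited beside them, are per transcript length and read number, and here gave the sums per library. With the counts they also gave the transcript lengths. These are implied lengths and can be shorter than the full transcripts. The deposited TPM values, with 1 total common to the libraries, served as an alternative scale. A further 15 columns of the authors' averages were not used.

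Expected counts were rounded to whole numbers, filtered by edgeR's expression filter (12868 genes left, 1 or more CPM in mean level for named genes), scaled by TMM and fitted with edgeR (4.0.16, R 4.3.3) over all 12 libraries, which left 8 residual degrees of freedom. The contrast was hairpin 3 minus hairpin 1, tested two-sided by the quasi-likelihood test with Benjamini-Hochberg adjustment over all tested genes and called under 0.05. The SE is the absolute log2 difference divided by the square root of the F statistic. CPM use TMM-scaled library sizes. The pipeline was tested on simulated data. The length trend was removed as a smooth offset per library (spline, 5 degrees of freedom). Lists were described by counts and medians, with no test. The members and lists were chosen with earlier results of these data known. Always named were SKA2, SKA1, SKA3 and PRR11. Then came the 12 largest rises and falls among called genes with at least 1 CPM and no overlap between the 6 libraries. For each described list up to 4 called members with the smallest adjusted p followed, and members needed to account for it by role. Some genes that this rule names are not reported here. Positions are from GENCODE v29 (GRCh38), which held 17091 of the Entrez identifiers. Promoters are from RefSeq (GRCh38.p14). The alternatives were RLE scaling, DESeq2 (1.42.0), limma (3.58.1) on log2(TPM + 1), other filters, the 6 libraries alone, a replicate block, length and GC offsets, and leaving out each library.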

Additional observations from a re-analysis of the deposited data

How the results depend on the processing

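The count of called genes, 1216 with all 12 libraries in the fit, was 1977 with DESeq2's Wald test, 336 with the 6 libraries alone, 1915 with the replicate block and length offset together, 3101 with the length and GC offset, and 239 to 5267 when 1 library was left out, highest without hairpin 3 library 1. The count at least 2-fold, 82, was 37 on the log2(TPM + 1) scale (pseudocount 1), 24 with at least 10 CPM in 3 libraries, 44 with the 6 libraries alone, and 31 to 321 when 1 library was left out. With the length offset and without hairpin 3 library 1, an alternative chosen after seeing the data, the counts were 3767 and 205. The SKA2 difference was 0.11 to 0.21 when 1 library was left out and -0.07 on the TPM scale, where SKA3 was at -0.00, PRR11 at -0.32 and MRPS35 at -0.02. PRR11 was at -0.13 to 0.16 when 1 library was left out, lowest without hairpin 3 library 1. FASN was at 0.01 with the length offset, 0.15 with that offset and without hairpin 3 library 1, and 0.01 with that offset and the 6 libraries alone. Of the 79 named genes that were called, 39 were called in all 6 leave-one-out fits and 79 kept their direction. In each case the cause was not tested, except that the TPM scale moves the median of all genes.

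The replicate numbers in the titles were not used to pair the samples. The deviations of same-numbered libraries from their line means correlated at -0.116, -0.048 and -0.023, and those of differently numbered libraries at -0.065 to 0.089. With 3 libraries a line, and hairpin 3 library 1 apart from its line, these values cannot settle whether the numbers mark a pairing. With the replicate block the counts were 1351 called and 88 at least 2-fold, and no named gene changed its call.

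Depth limits the genes near 1 CPM, where 1 CPM is about 15 counts per library.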

Other observations

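Counts for other lists are given beside 4.75% of all tested genes called higher and 4.70% lower. Metallothionein and zinc genes, which buffer metals, were called higher in 2 of 8 tested cases and lower in 0 (median log2 difference 0.68, and 0.19 with the length trend removed). DNA replication genes were called higher in 2 and lower in 5 of 44 cases (median -0.08, and -0.07 with the length trend removed). Of 22 genes of the NF-kB pathway 0 were called higher and 2 lower. The 2 higher calls among the replication genes are a share near that of all tested genes. Of 13 genes of microRNA processing, which hairpin RNAs pass through as well, 0 were called in either direction by edgeR, with a median of -0.38 that was -0.11 with the length trend removed. Without hairpin 3 library 1, 1 of these 13 was called higher and 8 lower, beside 19.5% and 21.0% of all genes.

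Of the genes called at least 2-fold with at least 10 CPM in either line, 11 were higher and 10 lower, and 12 of these 21 are in a list. The following were chosen after their values were seen. DHRS2, a short-chain dehydrogenase, had 24.0, 28.3 and 30.5 CPM in the hairpin 3 libraries, against 11.2, 12.2 and 11.6 CPM in the hairpin 1 libraries (log2 difference 1.24 ± 0.11, adjusted p = 1.8e-04 by edgeR's quasi-likelihood test), and was called in all 6 leave-one-out fits. SLC5A3, a myo-inositol transporter, had 93.9, 46.8 and 45.1 CPM, against 150, 152 and 155 CPM (-1.30 ± 0.28, adjusted p = 0.0195), with hairpin 3 library 1 between the other libraries of its line and the hairpin 1 libraries. SLC5A3 lost its call in the 5 leave-one-out fits that kept hairpin 3 library 1 (adjusted p up to 0.0908). ADAM12, a membrane metalloprotease, had 5.79, 4.75 and 4.99 CPM, against 11.6, 14.7 and 11.7 CPM (-1.29 ± 0.14, adjusted p = 5.67e-04), and was called in all 6.

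Of the 37 genes at least 2-fold higher, the control mean lay between the lines for 19, beyond the hairpin 3 mean for 14 and beyond the hairpin 1 mean for 4. Of the 45 at least 2-fold lower these were 19, 21 and 5.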
